A study of Mus musculus with 2 samples.

Results

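The genes described here build ribosomes, together with Myc, the transcription factor that drives their expression in growing cells. They were followed in developing mouse T helper 17 (Th17) cells. The 36 members were taken by symbol from the deposited expression table: Myc and the coactivator gene Pprc1, genes of RNA polymerase I transcription, of the nucleolar scaffold, of the box C/D and box H/ACA small nucleolar ribonucleoproteins (snoRNPs), of the small subunit processome, and of 60S subunit assembly. The members were chosen by gene name and function, not by a threshold on measured values, though with earlier results of these data known. All 36 were found among 24440 features, of which 13056 carried an Entrez gene identifier, and all 36 passed the filter of 1 FPKM in either library. FPKM are fragments per kilobase of transcript scaled to library size, a level per transcript length.

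Wild-type C57BL/6 mice, 6 to 8 weeks old, gave the CD4+ T cells, which were cultured for 48 h under conditions that drive Th17 differentiation. In 1 culture the antigen presenting cells (APCs) were wild type (the WT-APC library), and in the other they carried a transgene for OX40L, which binds the costimulatory receptor OX40 on T cells (the OX40L-TG-APC library). The promoter behind the transgene and the kind of APC are not given in the sources used here. Each condition had 1 library, so no difference has a replicate check, no test between conditions was made, and what follows describes a pair of libraries. The sequencing depth, estimated from the steps of low FPKM values, came to roughly 23400000 fragments (WT-APC) and 26800000 fragments (OX40L-TG-APC). Ratios carry 95% exact Clopper-Pearson intervals from estimated fragments, which cover counting error only. T cell markers were high in both libraries, with a summed level of 2106 FPKM (WT-APC) and 2377 FPKM (OX40L-TG-APC) over 10 of 10 genes. Of these, Thy1 (91.6 to 174 FPKM) and Cd2 (248 to 407 FPKM) were past 1.5-fold higher in the OX40L-TG-APC library. Cd28 (217 to 142 FPKM) was past 1.5-fold lower, and the rest were not past it. B cell markers were low and differed, at a summed 61.8 against 25.3 FPKM over 11 genes, and all 10 that passed the filter lay below the median change of all genes. Monocyte and macrophage markers summed to 17.7 and 8.57 FPKM, and dendritic cell markers to 4.79 and 2.18 FPKM, with Cd209a listed at 0 in the WT-APC library and Clec9a and Siglech listed at 0 in the OX40L-TG-APC library. Markers of CD8 T and natural killer cells summed to 16.7 and 17.2 FPKM. The part of these other cells in the results below was not tested, and in such bulk samples fewer cells of a type and less RNA per cell cannot be told apart.

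A ribosome begins as a long precursor RNA that RNA polymerase I transcribes from ribosomal DNA in the nucleolus. Box C/D snoRNPs methylate this RNA and box H/ACA snoRNPs convert chosen uridines to pseudouridine, while the small subunit processome cuts and folds the part that becomes the 40S subunit and a separate set of factors assembles the 60S subunit. Activated T cells enlarge their nucleoli before they divide, and Myc, induced through the T cell receptor and costimulation, binds E-boxes (CACGTG) at many of these genes.

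Because the members share this regulator as background, their promoters were searched for the canonical E-box, CACGTG. The motif is its own reverse complement, so both strands are read at once. The windows ran from 250 bases before to 50 bases after each annotated start and came from RefSeq (build GRCm38.p6). Windows were found for 29 of the 36 members. Myc, Fbl, Npm1, Bop1, Rrs1, Rrp12 and Tcof1 had none. CACGTG was present in 7 of 29 members (24.1%), against 12.3% of 8587 genes that have a window and reached 1 FPKM, and 8.09% of all 27025 genes with a window. Counted by window, 18.9% of 37 member windows and 7.15% of all 32851 windows held it. The members with a match were Mybbp1a, Nop2, Wdr43, Ltv1, Pes1, Nle1 and Utp20. In 6 of the 7 the match lay after the start, and with the bases before the start alone 1 of 29 members held it (3.45%, against 10.3% of the genes that reached 1 FPKM). A match describes letters in a window and is not evidence of a binding site.

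Below are 3 windows, 5′ to 3′, each on the + strand, with CACGTG in capitals. Mybbp1a (chr11:72441077-72441376) has the highest level among members with the motif and carries it after the start, from base 291 of the window. Nop2 (chr6:125131633-125131932) is the member with the motif before the start, from base 191. Nop10 (chr2:112261676-112261975) has the highest WT-APC level among members whose windows lack it.
Mybbp1a: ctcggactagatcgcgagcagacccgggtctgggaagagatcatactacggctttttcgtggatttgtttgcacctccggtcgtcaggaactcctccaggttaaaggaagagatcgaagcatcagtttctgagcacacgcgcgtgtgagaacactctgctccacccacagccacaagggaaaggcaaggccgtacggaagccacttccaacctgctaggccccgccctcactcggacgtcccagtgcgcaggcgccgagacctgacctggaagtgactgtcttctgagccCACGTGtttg
Nop2: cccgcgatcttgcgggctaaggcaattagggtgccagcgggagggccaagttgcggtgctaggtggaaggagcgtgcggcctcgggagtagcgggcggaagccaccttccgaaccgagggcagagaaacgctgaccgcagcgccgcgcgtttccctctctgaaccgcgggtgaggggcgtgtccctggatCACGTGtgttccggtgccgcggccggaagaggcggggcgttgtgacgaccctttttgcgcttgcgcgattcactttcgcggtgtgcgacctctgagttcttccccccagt
Nop10: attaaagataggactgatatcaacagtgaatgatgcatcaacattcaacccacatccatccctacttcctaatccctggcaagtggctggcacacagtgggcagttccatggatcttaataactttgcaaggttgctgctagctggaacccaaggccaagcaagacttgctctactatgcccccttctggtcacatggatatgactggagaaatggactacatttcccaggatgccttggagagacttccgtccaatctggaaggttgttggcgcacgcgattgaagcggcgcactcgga
The levels of these genes are given below with those of their role groups.

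As a group the members differed little between the libraries in the values as deposited. None of the 34 members with a value in both libraries reached 1.5-fold in either direction, and 25 of the 36 had an OX40L-TG-APC level within 10% of the WT-APC level (ratio 0.9 to 1.1), that is 69.4% of the members against 34.8% of 10645 annotated genes. The other 2, Pprc1 and Nolc1, were listed at 0 in the OX40L-TG-APC library. The 10% window is centred on a ratio of 1, while the median ratio of genes with 10 FPKM or more in both libraries was 1.09. The count within it depends on scaling. It was made for the values as deposited only, against genes of all levels that passed the filter. Change is given as the log2 ratio of OX40L-TG-APC to WT-APC levels after 1 FPKM was added to each, a scale that compresses the ratios of weakly expressed genes. No member reached 2-fold higher, where 2.26% of annotated genes did, and 2 reached 2-fold lower, the 2 genes listed at 0, where 1.32% of annotated genes did. At 1.5-fold the members' counts were the same, against 7.21% of annotated genes higher and 3.38% lower. At 1.2-fold, a threshold added after the values were seen, 1 member was higher (Npm1), against 27.9% of annotated genes, and 5 were lower, against 9.16%. The 5 were Ubtf, Polr1b, Gnl3 and the 2 genes listed at 0. Among 6602 genes that reached 10 FPKM in a library, closer to the members in level, 27.8% were higher and 6.73% lower.

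The small changes of the members lay mostly below those of other genes. The median log2 change of the 34 members was -0.05 (-0.06 over all 36), while that of all annotated genes was 0.11, so that the members stood at -0.16 relative to all genes. The members' middle 50% ran from -0.12 to 0.06, and that of all annotated genes from -0.05 to 0.29. Of the 34 members 30 fell short of that all-gene median and 4 exceeded it (Npm1, Polr1c, Pes1 and Fbl). Relative to 0 instead, 16 members were positive and 18 negative as deposited, and 4 and 30 once the median ratio of genes with 10 FPKM or more in both libraries, which was 1.09, was set to 1. With summed FPKM set equal they were 3 and 31. With the median ratio set to 1, 12 members thus changed sign, so values are given below rather than directions. The interval of the ratio, for counting error only, left out 1 for 19 of the 34 members, 6 above and 13 below. Among 10341 annotated genes with values in both libraries and a transcript length it left out 1 for 66.1%, with 49.1% above and 17% below.

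**Figure D1:**
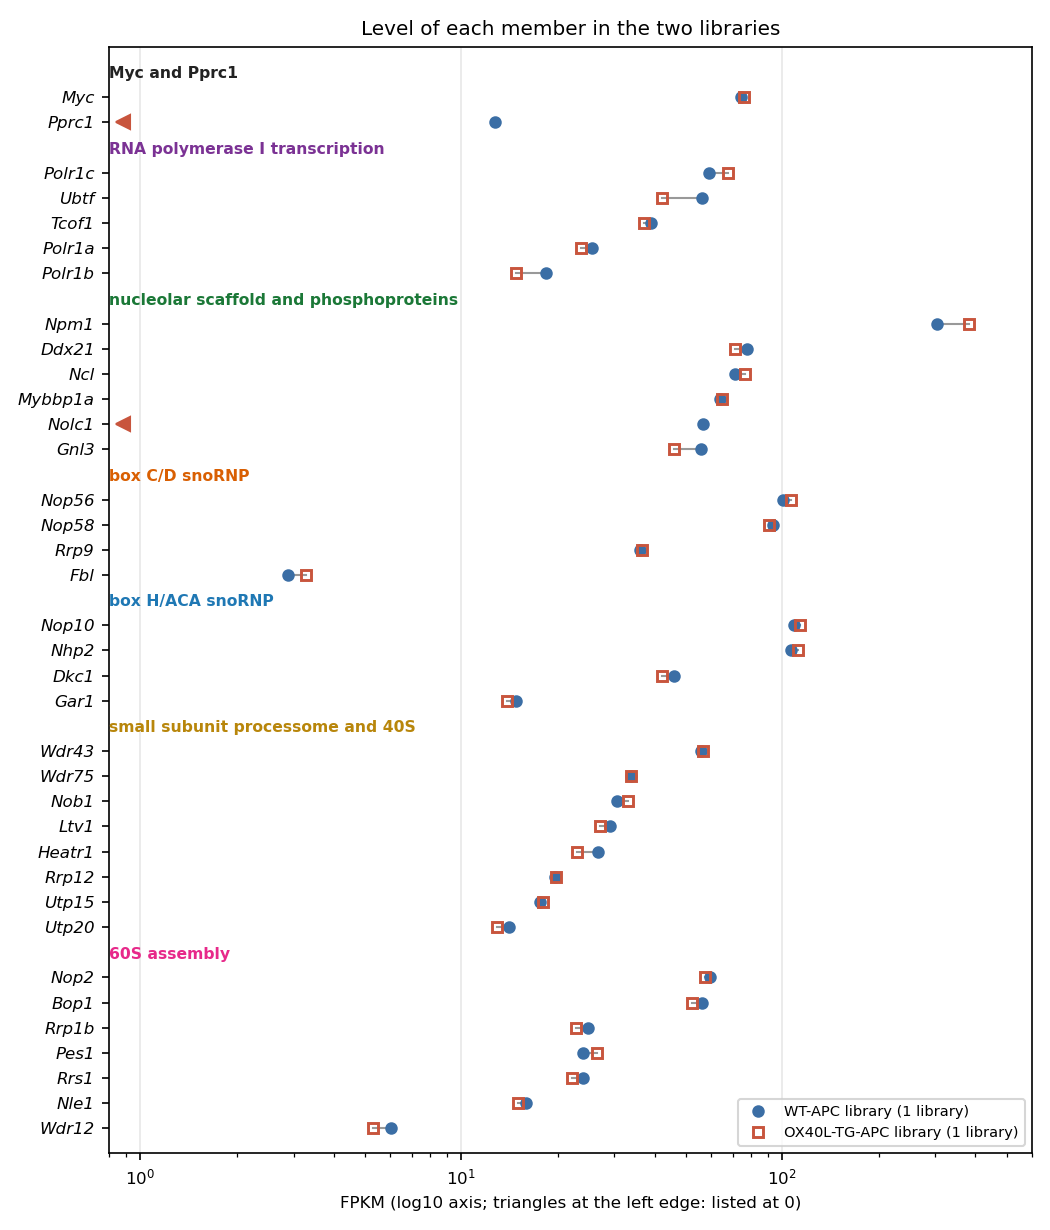
Level in FPKM (log10 axis) of each of the 36 members in the WT-APC library (filled circles) and the OX40L-TG-APC library (open squares), 1 library each, grouped by role. Most pairs nearly coincide, from Fbl at 2.88 and 3.27 FPKM to Npm1 at 303 and 383 FPKM, and the triangles mark Pprc1 and Nolc1, listed at 0 in the OX40L-TG-APC library.

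Myc stood at 74.1 FPKM in the WT-APC library and 76.2 FPKM in the OX40L-TG-APC library. Its ratio of 1.03 had an interval of 0.983 to 1.07, which includes 1, and its log2 change of 0.04 lay -0.08 from the median of all genes. The locus printed for it (Entrez 17869, chromosome 15, 61869540 to 62250975) also holds Pvt1, a long noncoding RNA gene beside Myc, at 2.82 and 1.92 FPKM. Coordinates here and below are as the authors' table prints them, and they follow GRCm38.

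Pprc1 encodes a coactivator of the PGC-1 family that is induced by serum and linked to mitochondrial biogenesis. It stood at 12.7 FPKM in the WT-APC library and was listed at 0 in the OX40L-TG-APC library. Nolc1, which encodes the nucleolar phosphoprotein Nopp140, a snoRNP chaperone, stood at 56.8 FPKM and was likewise listed at 0. Both genes are printed at the same locus (chromosome 19, 46056538 to 46087876), which holds these 2 features and no other. Ldb1, the nearest gene before that locus, had values in both libraries (109 and 101 FPKM), as did Gbf1 after it (12.8 and 11.9 FPKM), while Elovl3, which lies between the locus and Gbf1, was listed at 0 in both. Across all annotated genes, 11 had at least 10 FPKM in 1 library and exactly 0 in the other. Pprc1 and Nolc1 were the 2 protein-coding ones, and the other 9 were small RNA genes. Of 3501 printed loci with 2 or more features, 2 had every feature at 0 in 1 library with at least 10 FPKM in the other. A value of 0 in a table without counts can be a failed estimate, so no fold is given for either gene, and the counts of members lower at 2-fold and 1.5-fold above rest on these 2 values alone.

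**Figure D2:**
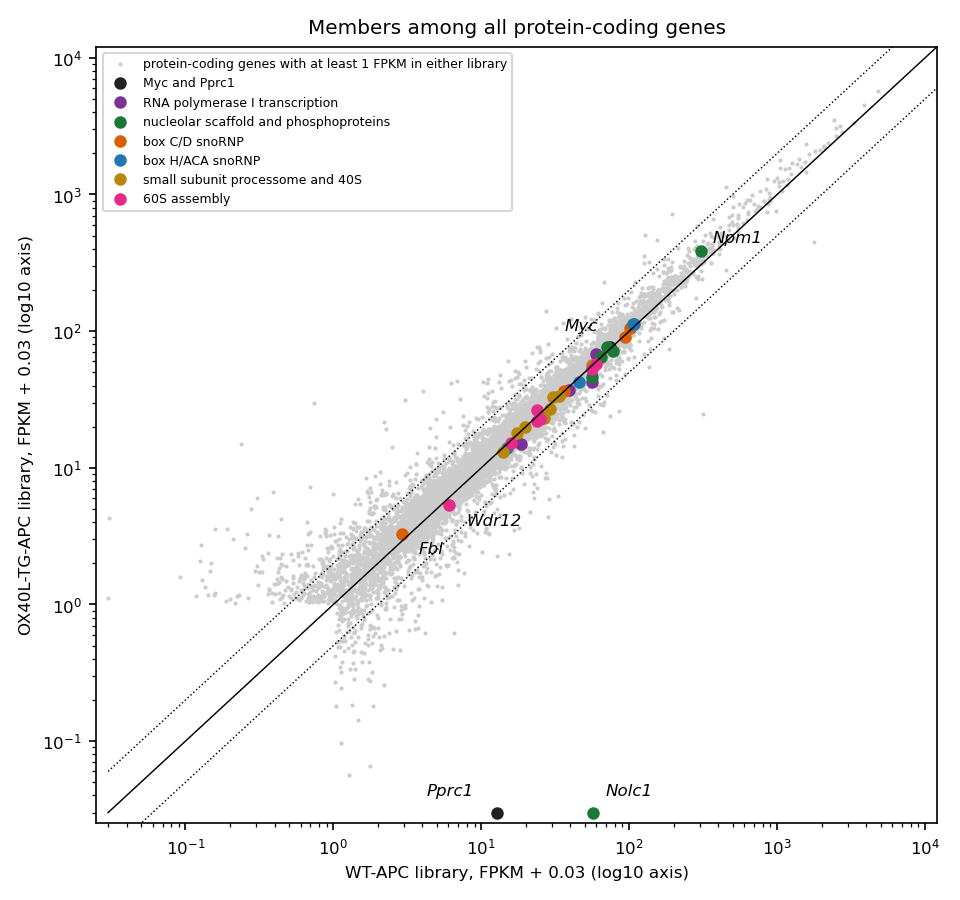
WT-APC against OX40L-TG-APC level (FPKM + 0.03, log10 axes) of protein-coding genes that reached 1 FPKM in a library (grey) and of the 36 members (coloured by role). The solid line marks equality and the dotted lines 2-fold, and all members except Pprc1 and Nolc1, which are listed at 0 in the OX40L-TG-APC library, lie between the dotted lines.

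Genes of RNA polymerase I transcription held the lowest ratios of the module. Ubtf encodes UBF, which binds and opens the ribosomal DNA. Its level was 56.3 FPKM in the WT-APC library and 42.3 FPKM in the OX40L-TG-APC library, for a ratio of 0.752 (0.719 to 0.786), and it was alone in its printed locus (Entrez 21429, chromosome 11, 102303800 to 102319096). Polr1b, which encodes a core subunit of the polymerase, followed at 18.4 and 14.8 FPKM, with a ratio of 0.804 (0.751 to 0.862). Both ratios lay below 1 under each scaling tried. They were 0.688 (Ubtf) and 0.736 (Polr1b) with the median ratio set to 1, and 0.664 and 0.71 with summed FPKM set equal, where Ubtf was 1.51-fold lower as a plain ratio but short of 1.5-fold on the log2 scale with 1 FPKM added. The printed locus of Polr1b also holds Chchd5, which went the other way (10.5 to 15.5 FPKM). Polr1a, the gene of the largest and catalytic subunit, stood at 25.6 and 23.6 FPKM. Tcof1, which encodes treacle, a cofactor of ribosomal DNA transcription, stood at 39.0 and 37.0 FPKM. Its printed locus also holds Cd74, the invariant chain gene of APCs (172 to 89.2 FPKM), and the ribosomal protein gene Rps14 (364 to 432 FPKM). Polr1c, a subunit gene shared with RNA polymerase III, had the highest ratio of the group, 1.14 (1.07 to 1.21), at 59.2 and 67.6 FPKM. Of the 5 genes 4 lay below the median change of all genes, and the group median was -0.11.

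The nucleolar scaffold genes had the highest summed level of the role groups, 572 and 641 FPKM over the 5 genes with both values, and the widest spread of changes. Npm1, which encodes nucleophosmin, the abundant histone and ribosome chaperone of the nucleolus, was the member with the highest level in both libraries. It stood at 303 and 383 FPKM, and its ratio of 1.26 (1.23 to 1.29) was the highest of all members. With the median ratio set to 1 it was no longer past 1.2-fold, and its level is uncertain because the genome holds near-identical processed copies of the gene. Ncl, the gene of nucleolin, which binds nascent precursor RNA, stood at 71.2 and 76.3 FPKM. Ddx21, an RNA helicase gene of the nucleolus, stood at 77.7 and 71.1 FPKM, and Mybbp1a, the gene of a nucleolar Myb-binding protein whose promoter is shown above, at 64.0 and 64.9 FPKM. None of these 3 moved by as much as 10% from the WT-APC level. Gnl3, which encodes nucleostemin, a nucleolar GTPase of proliferating cells, had the lowest ratio of the group, 0.823 (0.777 to 0.872), at 55.7 and 45.8 FPKM. The other genes of its printed locus, Spcs1 (76.1 to 89.2 FPKM) and Glt8d1 (4.56 to 6.48 FPKM), had ratios above 1.

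**Figure D3:**
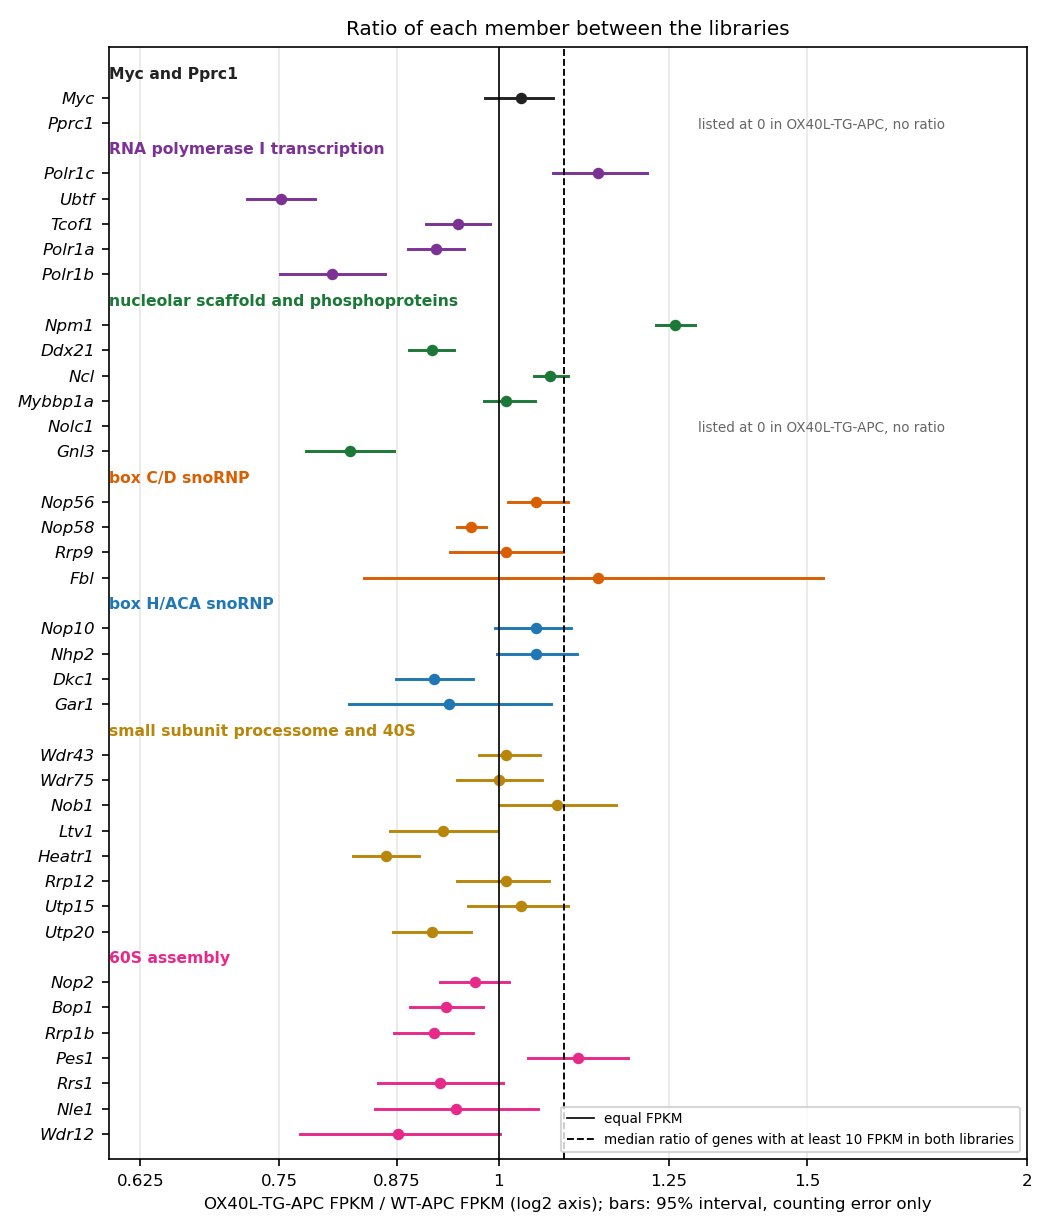
Ratio of the OX40L-TG-APC to the WT-APC FPKM (log2 axis) of each member, with 95% exact intervals for counting error only. The solid line marks a ratio of 1 and the dashed line 1.09, the median ratio of genes with at least 10 FPKM in both libraries, and most members lie left of the dashed line, from Ubtf at 0.752 to Npm1 at 1.26.

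Genes of the box C/D snoRNP were nearly equal between libraries. Nop56 and Nop58 encode the paired scaffold proteins of the particle. Nop56 stood at 101 and 106 FPKM, and the ratio was 1.05 (1.01 to 1.096). Nop58 stood at 93.9 and 90.6 FPKM, and its ratio was 0.965 (0.948 to 0.984), an interval that rests on an annotated transcript of 9507 bases and is too narrow if the expressed transcript is shorter. Rrp9, the gene of a protein specific to the U3 particle, stood at 36.2 and 36.5 FPKM. Fbl encodes fibrillarin, the methyltransferase of the same particle. It had the lowest level of all 36 members, at 2.88 and 3.27 FPKM, far under those of its partners, and the wide interval of its ratio (0.839 to 1.53) includes 1. Whether these low values understate the level of the gene was not tested. Fbl was alone in its printed locus (chromosome 7, 28169747 to 28179269).

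The box H/ACA particle has 4 core proteins, and their genes also stayed close. Nop10 stood at 108 and 113 FPKM and Nhp2 at 107 and 112 FPKM, both genes of small RNA-binding subunits. Their levels were alike, and the intervals of both ratios included 1 (0.995 to 1.1 for Nop10 and 0.998 to 1.11 for Nhp2). Dkc1 encodes dyskerin, the pseudouridine synthase of the particle. Its levels were 45.9 and 42.2 FPKM and the ratio was 0.919 (0.874 to 0.967). Gar1, which encodes the glycine- and arginine-rich subunit, was the lowest of the 4, at 14.8 and 13.9 FPKM. All 4 lay below the median change of all genes, with a group median of -0.01.

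In the small subunit processome and 40S group all 8 members lay below the median change of all genes, with log2 changes from -0.20 to 0.11 and a median of 0.00. Heatr1, Utp15, Wdr43 and Wdr75 encode processome proteins that act as the precursor RNA is transcribed. Heatr1 had the lowest ratio, 0.863 (0.827 to 0.901), at 26.6 and 23.0 FPKM. Utp15 stood at 17.5 and 17.99 FPKM, Wdr43 at 55.9 and 56.7 FPKM, and Wdr75 at 33.7 FPKM in both libraries. The intervals of these 3 ratios included 1. Utp20, a large scaffold protein gene of later steps, stood at 14.1 and 12.9 FPKM, and Rrp12, which acts in maturation and export of subunits, at 19.6 and 19.8 FPKM. Nob1, the gene of the nuclease that makes the final end of 18S RNA, had the highest ratio of the group, 1.08 (1.00 to 1.17), at 30.7 and 33.1 FPKM. Ltv1, a late 40S factor gene, stood at 29.0 and 27.0 FPKM.

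Among the 7 genes of 60S assembly, 6 lay below the median change of all genes and the group median was -0.10. Pes1, Bop1 and Wdr12 encode the subunits of the PeBoW complex, yet their values differed in size and side. Pes1 stood at 23.9 and 26.5 FPKM, the highest ratio of the group at 1.11 (1.04 to 1.19). Bop1 stood at 56.2 and 52.5 FPKM. Wdr12 had the lowest ratio, 0.877 (0.770 to 1.002), at 6.05 and 5.31 FPKM. With the median ratio set to 1, the log2 change of Pes1 was 0.02. Nop2, which encodes a methyltransferase of 28S RNA and whose promoter is shown above, stood at 59.5 and 57.7 FPKM. Rrp1b stood at 24.8 and 22.8 FPKM, and Rrs1, a gene needed for loading the 5S particle, at 23.9 and 22.1 FPKM. Nle1, a gene for late 60S maturation, stood at 15.9 and 15.1 FPKM. Each of these 4 had an OX40L-TG-APC level within 10% of its WT-APC level.

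The changes of members with and without CACGTG in their windows overlapped. The 7 with it had a median log2 change of -0.04 (-0.12 to 0.15) and the 20 without it and with values in both libraries had -0.07 (-0.40 to 0.19).

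Other genes of ribosome production also had few large changes. In 6 further lists, of the small subunit processome, 60S assembly, RNA polymerase I, RNA polymerase III, snoRNP assembly, and the exosome with RNase MRP, 175 genes passed the filter. None reached 1.5-fold in either direction on the log2 scale with 1 FPKM added, against 7.21% of annotated genes higher and 3.38% lower. As a plain ratio the weakly expressed Polr2k reached 1.6. The median log2 change of the 175 genes was 0.06, below the 0.11 of all annotated genes, and 114 of the 175 lay below that median. At 1.2-fold, 10.9% were higher and 2.86% lower, against 27.9% and 9.16% of annotated genes. The list medians were 0.06 for 48 processome genes, 0.09 for 56 genes of 60S assembly, 0.08 for 17 RNA polymerase I genes, 0.00 for 20 RNA polymerase III genes, 0.07 for 11 snoRNP assembly genes and 0.02 for 23 genes of the exosome and RNase MRP, and all 6 turned negative when the median ratio was set to 1 or summed FPKM set equal. The lowest processome gene was Nol6 (15.7 to 12.2 FPKM, WT-APC to OX40L-TG-APC) and the highest Tsr3 (19.3 to 27.6 FPKM). In the 60S list they were Urb1 (9.69 to 7.25 FPKM) and Zfp622 (20.4 to 27.2 FPKM). In the RNA polymerase I list the ends were Polr1h (48.1 to 40.04 FPKM) and Polr2k (2.14 to 3.41 FPKM), a subunit gene shared by the nuclear polymerases. In the RNA polymerase III list they were Polr3e (12.5 to 10.1 FPKM) and Polr3g (5.62 to 8.40 FPKM). The snoRNP assembly list ran from Rpap3 (31.0 to 26.3 FPKM) to Nufip1 (11.1 to 15.8 FPKM). The exosome and RNase MRP list ran from Pop7 (34.3 to 29.9 FPKM) to Mphosph6 (22.1 to 31.7 FPKM).

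**Figure D4:**
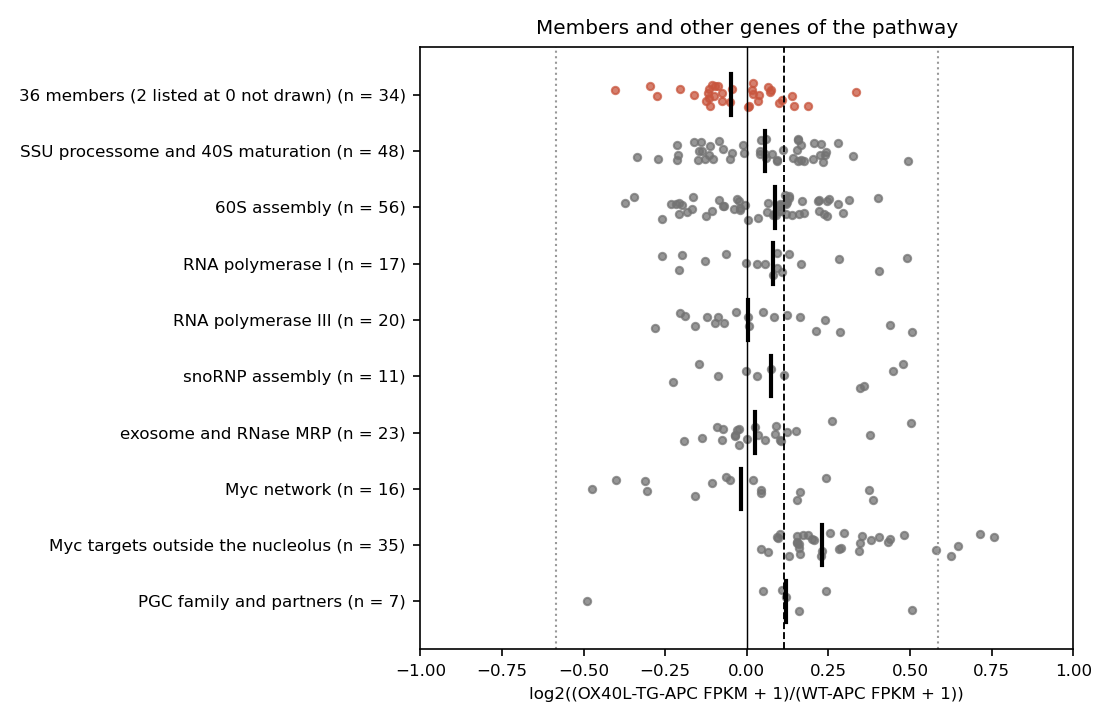
Log2 change on the log2(FPKM + 1) scale of the members with values in both libraries and of the kept genes of 9 further lists, 1 point per gene, with list medians as black bars. The dashed line is the median of all annotated genes (0.11) and the dotted lines mark 1.5-fold. The list of Myc targets outside the nucleolus has the highest median (0.23), and 4 of its genes are the points past the dotted lines.

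Genes around Myc itself had a median change near 0 as deposited. The 16 kept genes of the Myc network, its dimer partners, antagonists and turnover factors, had a median of -0.02. Of the 16, 11 lay below the median change of all genes. The list median was -0.14 with the median ratio set to 1 and -0.19 with summed FPKM set equal. None reached 1.5-fold as deposited, against 7.21% of annotated genes higher and 3.38% lower. The lowest was the kinase gene Pim1 (147 to 106 FPKM) and the highest was Mxi1, the gene of a Myc antagonist (16.3 to 21.6 FPKM). The log2 change of Pim1 was -0.60 and -0.65 under these scalings, past 1.5-fold lower in both. For the coactivator family of Pprc1 and its partners, 7 genes had a median of 0.12, running from Ppargc1b (1.78 to 0.977 FPKM) to the mitochondrial factor gene Tfb1m (5.43 to 8.13 FPKM). The weakly expressed Ppargc1b had a plain ratio of 0.55, past 1.5-fold lower, but fell short of it with 1 FPKM added.

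Known Myc targets outside the nucleolus had a higher median than the nucleolar genes. Of 35 genes 30 lay above the median change of all genes, with a list median of 0.23, which was 0.11 with the median ratio set to 1 and 0.06 with equal totals. At 1.5-fold, on the log2 scale with 1 FPKM added, 4 of the 35 were higher and none lower, against 7.21% and 3.38% of annotated genes. As plain ratios the weakly expressed Impdh2 (1.72 to 2.80 FPKM, ratio 1.63) and Tert (1.10 to 1.84 FPKM, ratio 1.66) were also past 1.5-fold. The 4 past 1.5-fold with 1 FPKM added were Hk2 (58.1 to 98.9 FPKM), Slc7a5 (19.3 to 32.3 FPKM), Ccnd2 (40.4 to 63.7 FPKM) and Tfrc (133 to 206 FPKM). Hk2 is the hexokinase gene of activated T cells, and Slc7a5 encodes a chain of a transporter for large amino acids. Ccnd2 is a D cyclin gene and Tfrc the transferrin receptor gene. With the median ratio set to 1, 2 of the genes were past 1.5-fold on the same scale, and with equal totals none was. The shares of annotated genes above are for the values as deposited and are not a background for these rescaled counts. The lowest of the list was Umps, a pyrimidine synthesis gene (36.7 to 37.8 FPKM). These genes are also targets of other pathways, and the difference between this list and the members was not tested.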

How the data were processed

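The series holds 1 RNA-seq library per condition. Libraries were made with an Illumina TruSeq kit from 1 µg of RNA of the cultured cells, per the labels' protocols. The authors deposited FPKM values per gene. TopHat2, Cuffdiff and the build mm9 are named in the submitters' processing notes, and versions, gene models and strand handling are not given in the sources used here. Of 13030 genes matched by Entrez identifier to RefSeq GRCm38, 99.7% had a printed locus overlapping the GRCm38 gene. Of values with 7 or more digits, 9693 of 9790 (WT-APC) and 9097 of 9105 (OX40L-TG-APC) ended in 5. A further table deposited by the authors gives log2 ratios and p-values for 398 genes past their filter. It lists none of the members and no gene of the 9 pathway lists.

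Changes were computed as log2 of FPKM with a pseudocount of 1, for the 10645 genes that reached 1 FPKM in a library. Depth was estimated from 416 genes with 1 transcript of at least 1500 bases and under 0.3 FPKM, of which 52.2% had whole-number fragment ratios within 0.2% at a depth ratio of 1.15, against 4.81% at a shifted ratio. The shifted ratio was set by hand and was changed after the result of a first setting was seen. Fragments per gene used the median length of GENCODE transcripts paired with RefSeq, so they are rough. Procedures were tested on simulated data. No test between conditions was possible. Members and lists were chosen with earlier results of these data known. All members are given, with intervals for Myc and the ends of each role group, and for other genes the ends of each list and those past 1.5-fold. Planned protein sequences are not used here, and 1 ribosomal protein gene is not reported here. Python 3.11.15 with scipy 1.17.1 was used. Alternatives were pseudocounts of 0.1 and 5, scalings, filters, and leaving out members.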

Additional observations from a re-analysis of the deposited data

How the results depend on the processing

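On the log2 scale, the counts of members past 2-fold and 1.5-fold were the same with pseudocounts of 0.1 and 5, without a filter, with a filter of 5 FPKM and under both scalings. They fell from 2 lower to 0 without Pprc1 and Nolc1, and also without all members that share a printed locus or are listed at 0. The members' median moved from -0.06 to -0.19 with the median ratio set to 0 on the log2 scale and to -0.24 with summed FPKM set equal, where the median of all genes was 0.00 and -0.05. At 1.2-fold, with 1 member higher and 5 lower as reported, the first scaling gave 0 and 7, the second 0 and 15, and a pseudocount of 5 gave 3 lower. Shares of annotated genes past a fold are given for the values as deposited only, so the counts under these settings stand without a background. A threshold of a 25% rise, or its inverse for lower, was computed first and replaced by 1.2-fold after its counts were seen. It gave 1 higher (Npm1) and 3 lower (Ubtf, Pprc1 and Nolc1), against 21.5% and 7.14% of annotated genes. At 1.2-fold, leaving out the members listed at 0 gave 3 lower, and also leaving out those that share a locus gave 1. Pathway genes past 1.5-fold were 4 higher and 0 lower as reported, 7 and 1 with a pseudocount of 0.1, 2 and 1 with the median ratio set to 0, and 0 and 1 with summed FPKM set equal. Under both scalings the lower gene was Pim1. Single members' log2 changes moved beyond their counting intervals under these scalings in 30 and 31 of the 34 members that have an interval, and in none of them with the other pseudocounts. The 2 genes listed at 0 have no interval, and their log2 changes depended on the pseudocount. The medians of all 9 pathway lists moved under the scalings alone. CACGTG was found in 7 members and in 1 with the bases before the start alone. No value for members could be taken from the authors' deposited table, which lists none. No paired analysis was possible because each group has 1 library, and leaving out a replicate was not possible for the same reason. Counting depth limits Fbl most, followed by Gar1 and Wdr12.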

Other observations

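Genes of the ribosomal proteins, the products that the nucleolar factors assemble with RNA, were examined after the members' values were seen. The 80 cytosolic ribosomal protein genes that reached 1 FPKM and are reported here had a median log2 change of 0.11. The median of all annotated genes was also 0.11. On the log2 scale with 1 FPKM added, 2 of the 80 passed 1.5-fold upward and 0 downward, against 7.21% and 3.38% of annotated genes. Among these 80 genes the lowest change was that of Rps28 (4.62 to 2.89 FPKM) and the highest that of Rpl23a (0.277 to 1.35 FPKM), both at levels low for genes of this class and uncertain because many of them have near-identical copies. The 77 kept genes of mitochondrial ribosomal proteins had a median of 0.17 and ran from Mrpl36 (55.6 to 49.5 FPKM) to Mrpl45 (27.3 to 48.0 FPKM). Of these 77, 2 passed 1.5-fold upward and 0 downward on the same scale, against the same shares of annotated genes.

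The printed loci of the members hold 20 further features without an Entrez identifier, spread over 12 loci. Of these, 11 reached 1 FPKM in either library, and 17 of the 20 (85%) had a lower value in the OX40L-TG-APC library, as did 69.5% of all 10833 features without an Entrez identifier that had a value above 0. The highest, an assembled feature in the locus of Myc and Pvt1, stood at 7.82 and 9.45 FPKM.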
